A study of Mus musculus with 2 samples.

Results

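Rasgef1b, Cab39, Abhd2, Zfp827, Camk2d, Stard13 and Aopep carry several Hnf4a regions inside their transcribed span. They are 7 of the 21631 protein-coding genes on chromosomes 1 to 19 and X in RefSeq GRCm38.p6, the assembly of mm10. The genes were chosen by the number of shared regions they hold for their length, so their counts and densities are descriptions and were not tested. Summits of the peak lists were counted inside each gene and within 20 kb of its ends. A shared region is a group of neighbouring summits, each within 100 bp of the next, that holds at least 1 summit of each replicate.

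Binding was mapped by ChIL-seq, in which a DNA probe coupled to the antibody guides Tn5 transposase to chromatin beside the bound protein, and the tagged sites are amplified by transcription inside the fixed cells. The 2 samples form 1 group of iHepCs, hepatocyte-like cells made from wild-type C57BL/6J embryonic fibroblasts by retroviral Foxa2 and Hnf4a, without a control group. Both were kept in serum-containing medium with insulin, dexamethasone, nicotinamide, glutamine, β-mercaptoethanol, antibiotics, hepatocyte growth factor and epidermal growth factor, and the labels call their cell type fibroblast. The lists do not separate introduced from endogenous Hnf4a and hold no expression values, so the cell identity was not checked against markers.

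Hnf4a is a nuclear receptor that binds DNA as a homodimer and is needed for the hepatocyte programme. Nuclear receptors are often found at enhancers within introns as well as at promoters, and a long gene can hold several such elements. The 7 genes do not form a pathway. Rasgef1b and Stard13 regulate small GTPases, Cab39 and Camk2d act in kinase signalling, Abhd2 and Aopep are hydrolytic enzymes, and Zfp827 is a zinc finger protein of the nucleus.

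The lists held 21283 summits in replicate 1 and 24097 in replicate 2, with a median score of 7.32 and 6.67. The score is the authors' −log10 q of a summit, so a higher score is a stronger call. Scores were not scaled between the lists, so the replicates were compared by percentile, the share of a list's summits with a lower score. Chaining both lists gave 9193 shared regions. Read depth is unknown from summit lists, and all intervals given here cover counting error only. The series text calls the samples biological replicates, while the summit names place both in the same lot of cells.

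The 7 genes together held 50 shared regions over 1350 kb, or 3.7 per 100 kb, against 0.413 per 100 kb over all other protein-coding genes. They made up 0.129% of the summed length of those genes and held 0.544% of all shared regions. Each of the 7 held at least 5 shared regions inside the gene, which 0.324% of all protein-coding genes and 0.552% of the 6516 genes of like length did. At least 1 shared region lay inside 13.8% of all protein-coding genes. Because the genes were chosen for this count, nothing is read from the difference.

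The density of shared regions differed 5.66-fold among the 7 and fell with gene length, apart from Stard13 and Aopep. Rasgef1b, Cab39 and Abhd2 held 5 regions each, and Zfp827 and Camk2d 8 each. Within each of these groups the fall with length is therefore arithmetic. Rasgef1b was the densest with 14.1 per 100 kb of gene (95% exact Poisson interval 4.57 to 32.9). Cab39 followed with 8.6 (2.79 to 20.1), and Abhd2 had 5.66 (1.84 to 13.2). Among the longer genes, Zfp827 had 4.81 (2.08 to 9.48), Camk2d 3.19 (1.38 to 6.28), Stard13 2.56 (1.23 to 4.71) and Aopep 2.49 (1.14 to 4.73). The intervals of neighbours in this order overlap, and those of Stard13 and Aopep are nearly the same.

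**Figure D1:**
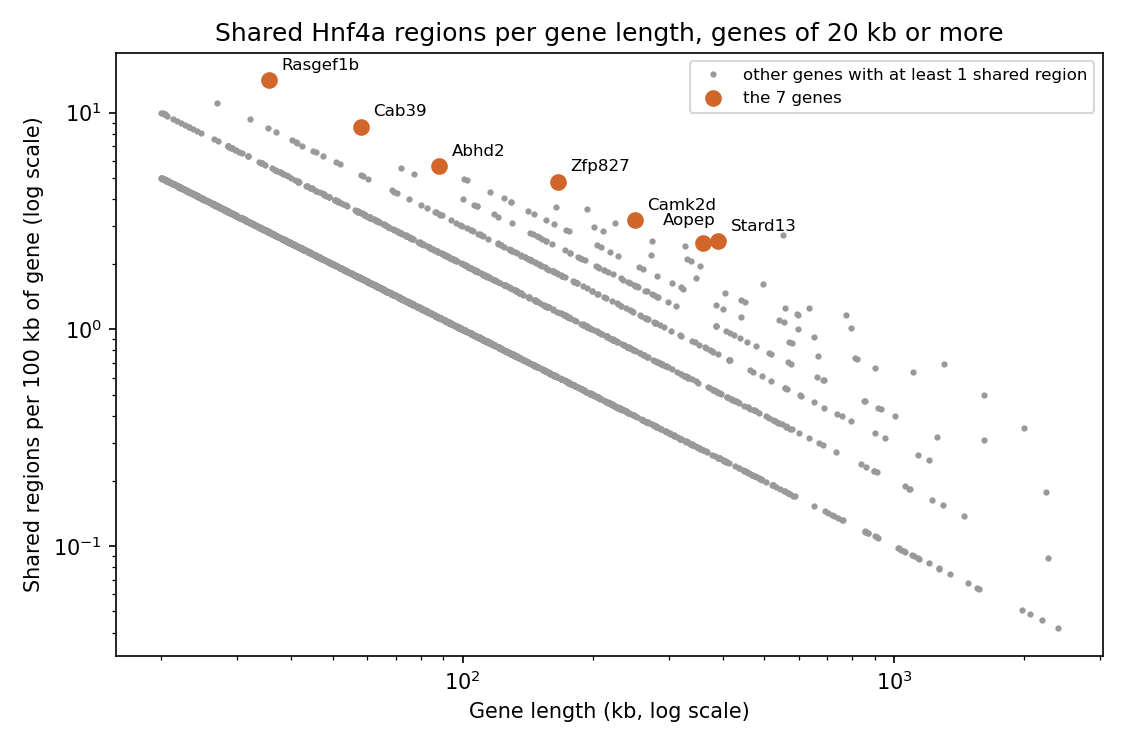
Shared Hnf4a regions per 100 kb of gene against gene length in kb (both axes logarithmic) for protein-coding genes of 20 kb or more with at least 1 shared region. Each grey point is a gene, and the diagonal rows are genes with the same number of regions. The 7 genes (orange) lie high among genes near their own length, from 14.1 per 100 kb for Rasgef1b to 2.49 for Aopep. A longer gene outside the 7 was denser than Stard13 and Aopep.

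Each gene was then set beside the protein-coding genes outside the 7 whose length lay within 20% of its own. These numbered from 267 for Stard13 to 2161 for Rasgef1b. In none of the 7 comparisons did such a gene reach the member's density of shared regions. As the genes were chosen by their number of shared regions for their length, this restates the choice. Stard13, left out as a member, is within 20% of the length of Aopep and was denser (2.56 against 2.49 per 100 kb). The nearest genes outside the 7 were chosen after their values were seen. Pi4k2a, a phosphatidylinositol kinase gene, had 3 regions and 9.35 per 100 kb beside Rasgef1b, and Cflar, an inhibitor of death receptor signalling, had 3 and 6.31 beside Cab39. Some margins were narrow: the catenin gene Ctnnd1 had 5.56 per 100 kb beside 5.66 in Abhd2, and the transporter gene Abcc4 had 3.11 beside 3.19 in Camk2d. For Zfp827 the nearest was Atf6, a stress-activated transcription factor, with 6 regions and 3.66 per 100 kb.

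The order was less firm when the replicates were counted apart. No gene of like length reached Rasgef1b or Abhd2 in either list. Cab39 was reached by 1 gene in replicate 1 and 5 in replicate 2, and Camk2d by 3 and 8. Zfp827, Stard13 and Aopep were reached by 3, 1 and 4 genes outside the 7 in replicate 1 and by none in replicate 2. Stard13 itself was denser than Aopep in replicate 1 (3.58 against 3.32 per 100 kb) and in replicate 2 (4.86 against 4.43). Without regard to length, 70 genes held 5 or more shared regions, the 7 among them. By density Rasgef1b, Cab39 and Abhd2 ranked 1 to 3 of the 70 and Zfp827 ranked 6, while Camk2d ranked 16, Stard13 24 and Aopep 26. Dcaf5 (4.96 per 100 kb) and Tm4sf1 (4.9), picked after their values were seen, stood between Abhd2 and Zfp827.

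Rasgef1b encodes a guanine nucleotide exchange factor that activates Rap GTPases and is known as an inducible gene of macrophages. The gene spans chr5:99217420-99252927 on the minus strand (35.5 kb). It held 5 summits in replicate 1 and 5 in replicate 2, or 14.1 ± 0.0 per 100 kb (SD, n = 2), and every one of them was shared. Both lists thus placed the same 5 regions in the gene, and no other gene of the 7 except Cab39 had this property. The strongest in replicate 2 was at chr5:99236739-99236742, 16.2 kb from the 5′ end, with summits 3 bp apart and scores of 17.3 in replicate 1 and 27.0 in replicate 2. Its neighbour at 15.4 kb scored 13.5 and 15.1, and the region at 10.6 kb, the strongest in replicate 1, scored 20.9 and 15.5. These 3 lie in the middle of the gene, 2 of them only 745 bp apart, and each was at or above percentile 84.4 of its list. A region at 29.0 kb scored 14.6 and 8.52.

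The remaining region of Rasgef1b, chr5:99252759-99252835, lay at the promoter, 130 bp inside the gene, and scored 4.67 in replicate 1 and 8.91 in replicate 2. It was the only one of the 50 within 1 kb of an annotated 5′ end, and none lay within 1 kb of a 3′ end. Its score was the lowest of the gene in replicate 1. The 250 bases before the start site (chr5:99252928-99253177, GRCm38.p6, minus strand, from RefSeq) are shown because this is the promoter beside a region found by both replicates. Capitals mark matches to the GC box GGGCGG and to the CCAAT box on either strand.
Rasgef1b: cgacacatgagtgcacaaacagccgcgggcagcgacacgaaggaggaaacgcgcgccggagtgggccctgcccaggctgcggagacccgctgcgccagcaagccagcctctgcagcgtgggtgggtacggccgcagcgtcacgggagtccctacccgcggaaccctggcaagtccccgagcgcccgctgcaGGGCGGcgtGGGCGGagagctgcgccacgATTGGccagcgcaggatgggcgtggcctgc

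Cab39 encodes MO25α, the scaffold protein that holds the tumour suppressor kinase LKB1 and its partner STRAD in an active complex, which acts upstream of the energy sensor AMPK. The gene spans chr1:85793441-85851577 on the plus strand (58.1 kb). As in Rasgef1b, the 5 summits of replicate 1 and the 5 of replicate 2 formed 5 shared regions, or 8.6 ± 0.0 per 100 kb (SD, n = 2). They began 1033 bp from the 5′ end, with a score of 7.56 in replicate 1 (6.77 in replicate 2). Further regions followed at 6.3 kb (11.9 and 10.5), 13.4 kb (8.6 and 4.24) and 22.1 kb (8.94 and 6.71). The last, chr1:85838331-85838363 at 44.9 kb, scored 6.79 in replicate 1 and 15.9 in replicate 2. Of the 5, 4 were in the first 38.1% of the gene, and 4 had a higher percentile in replicate 1. The regions of Cab39 were modest, with medians of 8.6 and 6.77 in the gene against 9.93 and 9.61 over all shared regions. Among the top 10000 summits of each list, only 1 shared region remained in Cab39.

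Abhd2 encodes an α/β hydrolase, a monoacylglycerol lipase activated by progesterone in sperm. The gene spans chr7:79273266-79361601 on the plus strand (88.3 kb) and held 7 summits in each list, or 7.92 ± 0.0 per 100 kb (SD, n = 2), of which 5 pairs were shared. It had 2 of the 3 highest scores of the 7 genes in replicate 1. One, chr7:79324040-79324059 at 50.8 kb, had a score of 31.8 in replicate 1 (14.5 in replicate 2). The other, chr7:79301153-79301166 at 27.9 kb, scored 29.9 and 20.5. The latter lies also inside Gm39041, a non-coding RNA gene within Abhd2. Regions at 6.6 kb (23.0 and 16.0), 15.1 kb (12.9 and 5.89) and 37.2 kb (9.35 and 6.93) scored lower in replicate 1, though in replicate 2 the one at 6.6 kb was above that at 50.8 kb. All 5 had a higher percentile in replicate 1, and none lay in the last 25% of the gene. A further pair of summits at 63.6 and 63.7 kb scored 17.7 in replicate 1 and 16.0 in replicate 2 but stood 115 bp apart, just outside the limit for sharing. One shared region lay outside the gene, 16.4 kb upstream (11.9 and 5.63).

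Each replicate had at least 1 summit within 1 kb upstream of Abhd2, at different bases. Replicate 2 had summits 660 bp (6.18) and 118 bp (7.67) before the gene, and replicate 1 had one 539 bp before it (12.9). The nearest of the 3 lies in the promoter sequence chr7:79273016-79273265 (GRCm38.p6, plus strand, from RefSeq), which is shown with the 21 bases centred on that summit in capitals.
Abhd2: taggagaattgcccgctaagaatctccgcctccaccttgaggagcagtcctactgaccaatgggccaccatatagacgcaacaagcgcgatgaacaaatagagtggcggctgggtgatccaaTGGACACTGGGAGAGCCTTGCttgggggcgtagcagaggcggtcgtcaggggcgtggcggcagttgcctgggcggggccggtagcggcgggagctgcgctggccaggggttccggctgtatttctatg

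Zfp827 encodes a zinc finger protein that recruits the NuRD chromatin remodelling complex, known from telomeres maintained without telomerase. The gene spans chr8:79027486-79193768 on the plus strand (166 kb) and held 9 summits in replicate 1 and 12 in replicate 2, or 6.31 ± 1.28 per 100 kb (SD, n = 2). These gave 8 shared regions, 1 summit of replicate 1 alone and 4 of replicate 2 alone. The best was chr8:79060006-79060021 at 32.5 kb, with 30.7 in replicate 1 and 21.0 in replicate 2. It stood apart from the other 7. The next, at 76.1 kb, scored 15.8 and 14.3, and those at 14.2 kb (7.94 and 13.9) and 69.6 kb (8.58 and 12.9) were weaker. The region at 40.8 kb scored 8.31 and 4.64.

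The last 3 regions of Zfp827 lay close together at 123.1, 128.5 and 135.5 kb. Their scores in replicate 1 were 4.09, 4.78 and 6.6, and in replicate 2 they were 9.13, 8.93 and 7.68. All 3 were below the median of their list in replicate 1 and above it in replicate 2. One further region lay 18.4 kb upstream (12.9 and 11.2), inside the non-coding RNA gene Gm39204. At the start site used by the RefSeq promoter table, which is 951 bp into the gene, only replicate 2 had a summit, 94 bp upstream with a score of 9.74. The 29 bases around it (chr8:79028329-79028357, plus strand) are shown because this is the promoter call nearest to that start site, with the summit base in capitals.
Zfp827: tatttatacctcccAtcacacgcgagcac

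Camk2d encodes the delta isoform of calcium/calmodulin-dependent protein kinase II, which is widely expressed and best studied in the heart. The gene spans chr3:126595487-126846326 on the plus strand (251 kb) and held 11 summits in each list, or 4.39 ± 0.0 per 100 kb (SD, n = 2). They formed 8 shared regions and left 3 summits alone in each replicate. Of the 8, 4 were packed between 100.4 and 112.4 kb from the 5′ end, with 779 bp between the closest. Within this stretch, replicate 1 scored 11.0, 17.3, 10.3 and 7.13, and replicate 2 scored 10.2, 7.49, 14.7 and 8.81. In no other of the 7 genes did 4 shared regions lie within so short a stretch. The strongest regions of Camk2d lay outside it, at chr3:126661036-126661087 (20.6 and 25.9) and near the 3′ end at chr3:126827418-126827429 (18.4 and 18.8). The remaining regions, at 16.3 kb (7.7 and 10.1) and 149.1 kb (7.71 and 12.8), had higher percentiles in replicate 2. Shared regions also lay 17.1 kb upstream (5.5 and 9.36) and 3.5 kb downstream (4.23 and 6.65). Neither replicate had a summit within 14.8 kb of the start site in the promoter table.

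Stard13 encodes a GTPase-activating protein of the DLC family with a lipid-binding START domain, which switches off RhoA and Cdc42. The gene spans chr5:151037515-151428200 on the minus strand (391 kb) and held 14 summits in replicate 1 and 19 in replicate 2, or 4.22 ± 0.905 per 100 kb (SD, n = 2). The gene had 10 shared regions, the highest count of the 7, and 4 and 9 summits stood alone. The highest score of the gene in replicate 1 was at chr5:151170328-151170363, 257.9 kb from the 5′ end (27.7, with 19.2 in replicate 2). Regions at 51.2 kb (24.7 and 9.47) and 53.1 kb (16.3 and 11.0) lay 1861 bp apart inside the non-coding RNA gene 1700028E10Rik. Another pair followed at 106.9 kb (21.8 and 9.45) and 112.2 kb (17.2 and 21.4), the latter the highest shared region of the gene in replicate 2. Of the 10, 8 had a higher percentile in replicate 1, the exceptions being those at 112.2 kb and 176.5 kb (3.64 and 6.56).

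The other Stard13 regions lay at 131.8 kb (14.8 and 6.99), 189.9 kb (11.4 and 9.7), 225.0 kb (18.7 and 6.57) and 362.8 kb (19.2 and 4.94). The last showed the widest gap between replicates of all 50 regions, at percentile 93.5 of replicate 1 and 27.0 of replicate 2. The region at 176.5 kb is 881 bp from an end of 5430435K18Rik, another non-coding RNA gene. Between 257.9 kb and 362.8 kb no region was shared, but a pair of summits 174 bp apart near 285.7 kb scored 10.2 in replicate 1 and 22.4 in replicate 2. The promoter table places the Stard13 start 238 kb into this span, at a shorter transcript. Only the shared regions at 257.9 kb and 362.8 kb lie past that start. The count, density and positions given for Stard13 therefore rest on the longer annotated span. The nearest summit to that start was 529 bp downstream, in replicate 2 alone and with a score of 3.98.

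Aopep encodes aminopeptidase O, a zinc metallopeptidase that trims amino acids from peptide ends. The gene spans chr13:62964893-63326096 on the plus strand (361 kb) and held 12 summits in replicate 1 and 16 in replicate 2, or 3.88 ± 0.783 per 100 kb (SD, n = 2). Of these, 9 pairs were shared, and 3 and 7 summits stood alone. The first lay 81.7 kb from the 5′ end, at chr13:63046580-63046606, and was also the strongest in replicate 2 (18.0 and 20.1). It was followed at 107.8 kb by a region of 19.4 and 13.0 and at 123.4 kb by one of 7.81 and 9.42, which is 450 bp from an end of the non-coding RNA gene Gm46422. The first 81.7 kb of Aopep thus held no summit of either list. The next 4 regions all scored below 10 in both lists, with 5.24 and 5.44 at 176.1 kb, 7.04 and 8.19 at 190.3 kb, 3.0 and 6.34 at 266.9 kb and 8.43 and 8.72 at 293.5 kb.

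Aopep is also the host of a microRNA cluster near its 3′ end. Its last 2 shared regions stand on either side of that cluster, the first 6090 bp before the Mir23b hairpin (chr13:63294353-63294435, 8.21 and 12.4) and inside the non-coding RNA gene Gm16907. The second lies 3417 bp beyond the Mir24-1 hairpin (chr13:63304687-63304697, 17.0 and 9.79) and is also inside Fancc, a DNA repair gene that overlaps the end of Aopep. No shared region overlapped a hairpin. The hairpins of Mir23b, Mir27b and Mir24-1 lie between 63300484 and 63301275 on chromosome 13, on the strand of Aopep, with Mir3074-1 on the opposite strand of Mir24-1. MicroRNAs of this cluster are known from liver, where miR-27b is linked to lipid metabolism. The 6 mature sequences of the cluster in the RefSeq table used, which leaves miR-23b-3p unprinted, are shown because the cluster lies between these regions, with the seed (bases 2 to 8) in capitals. These 6 seeds all differ.
mmu-miR-23b-5p: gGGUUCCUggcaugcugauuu
mmu-miR-27b-5p: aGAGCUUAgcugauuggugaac
mmu-miR-27b-3p: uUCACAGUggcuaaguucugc
mmu-miR-24-1-5p: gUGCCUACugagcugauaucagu
mmu-miR-24-3p: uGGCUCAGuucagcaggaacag
mmu-miR-3074-5p: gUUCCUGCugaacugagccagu

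At the other end of Aopep, replicate 1 alone had a summit 30 bp before the start site, with a score of 4.43, while the nearest summit of replicate 2 was 2254 bp upstream (3.93). Both were weak calls within their lists. The promoter chr13:62964643-62964892 (GRCm38.p6, plus strand, from RefSeq) is shown with the 21 bases centred on the replicate 1 summit in capitals. One shared region lay 12.7 kb upstream of the gene (13.5 and 9.68).
Aopep: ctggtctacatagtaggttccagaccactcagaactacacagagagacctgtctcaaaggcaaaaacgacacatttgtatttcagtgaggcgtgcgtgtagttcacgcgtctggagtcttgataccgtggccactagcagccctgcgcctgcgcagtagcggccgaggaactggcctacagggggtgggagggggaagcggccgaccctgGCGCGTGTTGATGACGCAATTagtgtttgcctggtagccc

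**Figure D2:**
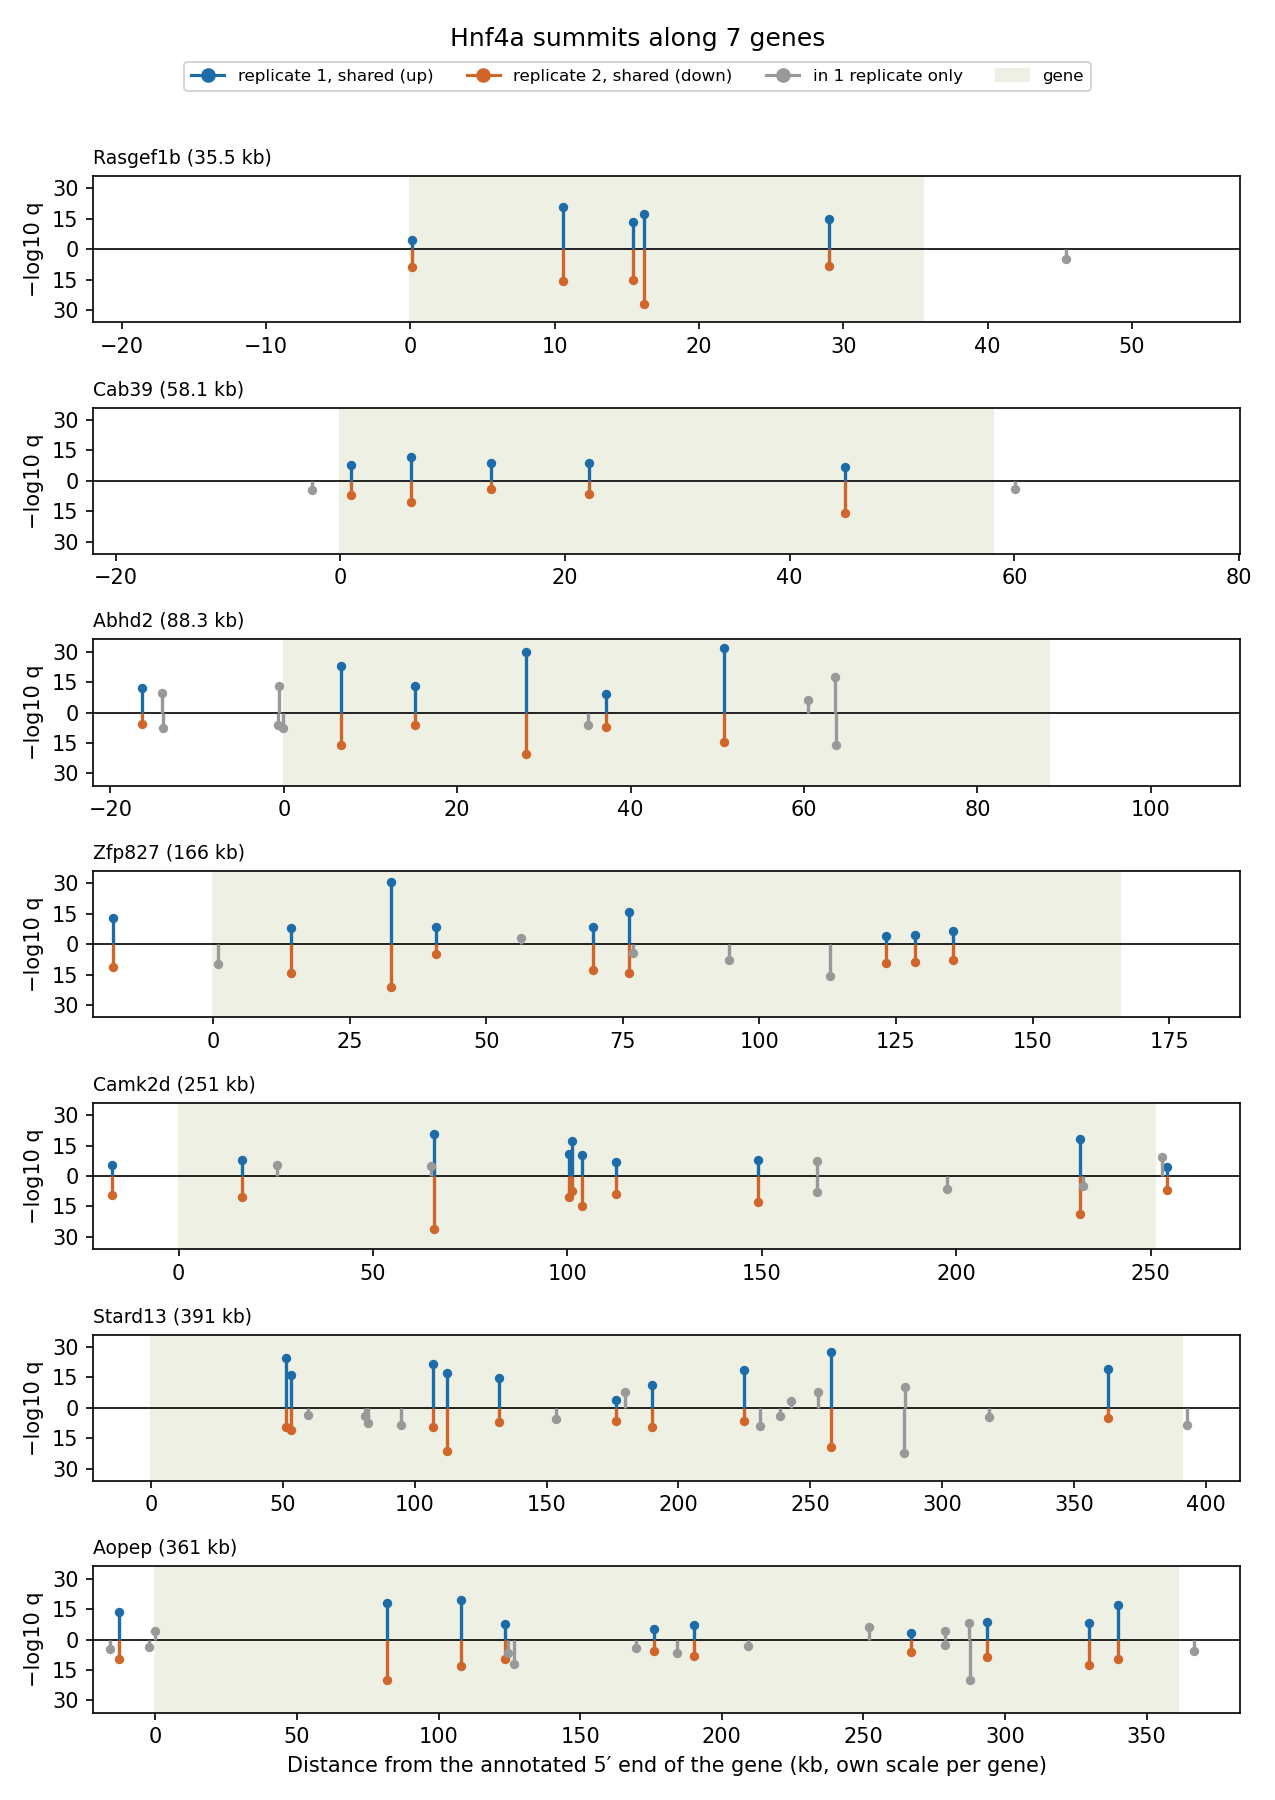
Summits along the 7 genes and 20 kb on either side, by distance from the annotated 5′ end in kb (own scale per gene). Bars show the −log10 q of replicate 1 upwards and of replicate 2 downwards, in colour where shared and in grey where only 1 replicate had a summit. Rasgef1b and Cab39 hold no grey bar inside the gene, Abhd2 is empty in its last 25%, and 4 regions of Camk2d lie between 100.4 and 112.4 kb.

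The promoters of all 7 genes were found in the RefSeq table, each a window from 250 bases before to 50 after a start site. A search of both strands for CAAAGTCCA and CAAAGGTCA, forms of the HNF4 site, and for direct repeat 1, a pair of AGGTCA half-sites with 1 base between them, found none in the 7 windows. Over all 32851 promoter windows, 0.475%, 0.478% and 0.0396% held them. The AP-1 site TGANTCA (7.81% of all windows) and the FOX site TGTTTAC (3.65%) were not in the 7 windows either. The CCAAT box was in Rasgef1b, Abhd2 and Stard13 (37.4% of all windows) and the GC box GGGCGG in Rasgef1b, Cab39, Abhd2 and Camk2d (35.7%). These matches describe the letters of the windows, and the 50 regions lie outside the windows of the 7 genes.

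Taken over all 7 genes, the regions were more frequent inside than in the surrounding sequence. In the 20 kb on either side, 5 regions were shared, 4 upstream and 1 downstream, or 1.79 per 100 kb. From 20 to 220 kb beyond the ends, 19 regions gave 0.679 per 100 kb. The distant density ran from 0.25 around Stard13 to 1.25 around Camk2d and was below the density inside the gene in all 7. Close to the ends the genes differed: Rasgef1b, Cab39 and Stard13 had no shared region within 20 kb, whereas the flanks of Camk2d, with 2 regions, were denser than the gene (5.0 against 3.19 per 100 kb) and those of Aopep, with 1 region, about as dense (2.5 against 2.49). As the genes were chosen for their density, a lower density outside them follows in part from that choice.

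**Figure D3:**
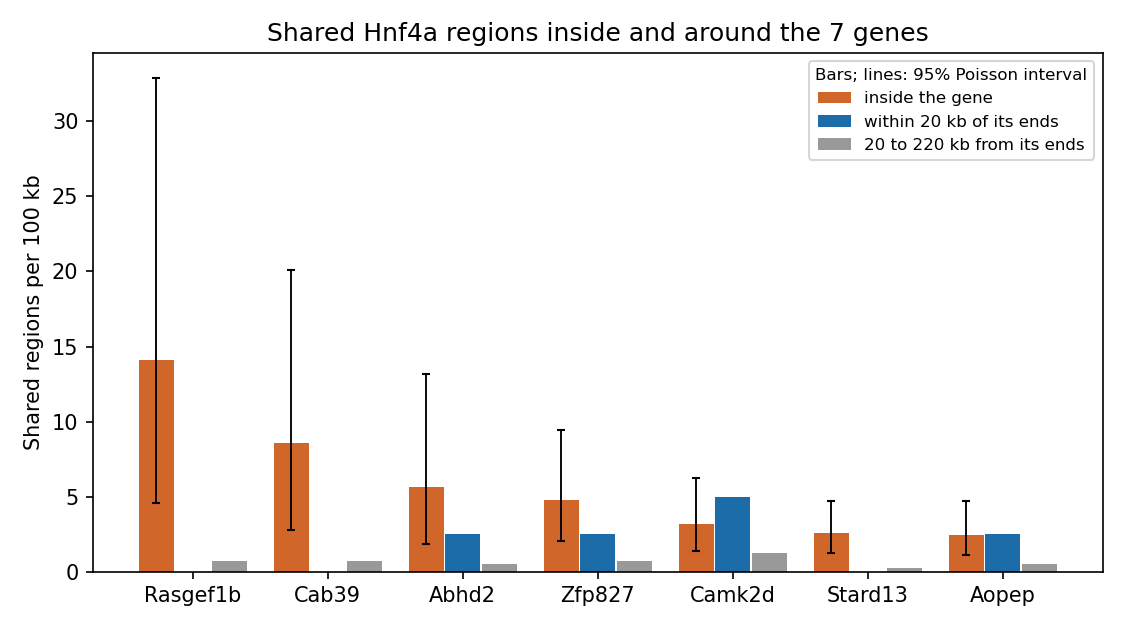
Shared regions per 100 kb inside each of the 7 genes (orange, with 95% exact Poisson intervals), within 20 kb of its ends (blue) and from 20 to 220 kb beyond them (grey). The grey bars lie between 0.25 and 1.25, and blue bars are missing for Rasgef1b, Cab39 and Stard13, where the count was 0.

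Along the genes, shared regions were placed most often between 25% and 50% of the way from the 5′ end. Of the 50, 13 lay before that (26.0%), 21 within it (42.0%), 7 between 50% and 75% (14.0%) and 9 beyond (18.0%). The other genes of like length with a known strand, 5132 in number, had 33.6% of their 2055 regions in the first of these parts, 24.7% in the next, 24.9% in the third and 16.9% in the last. These genes were pooled without weighting. Most were near the shorter members in length, whereas most of the 50 regions lie in the longer members. Between 25% and 50%, Camk2d and Stard13 had 5 regions each, and Rasgef1b and Aopep 3 each. For Stard13 this rests on the annotated span, whose 5′ end lies 238 kb before the start in the promoter table. Cab39 and Zfp827 had 3 regions each in the first 25%. With regions within 1 kb of a gene end left out, the first 25% held 24.5% of the members' regions and 29.4% of those of the other genes. These shares rest on 50 regions in 7 genes and were not tested.

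**Figure D4:**
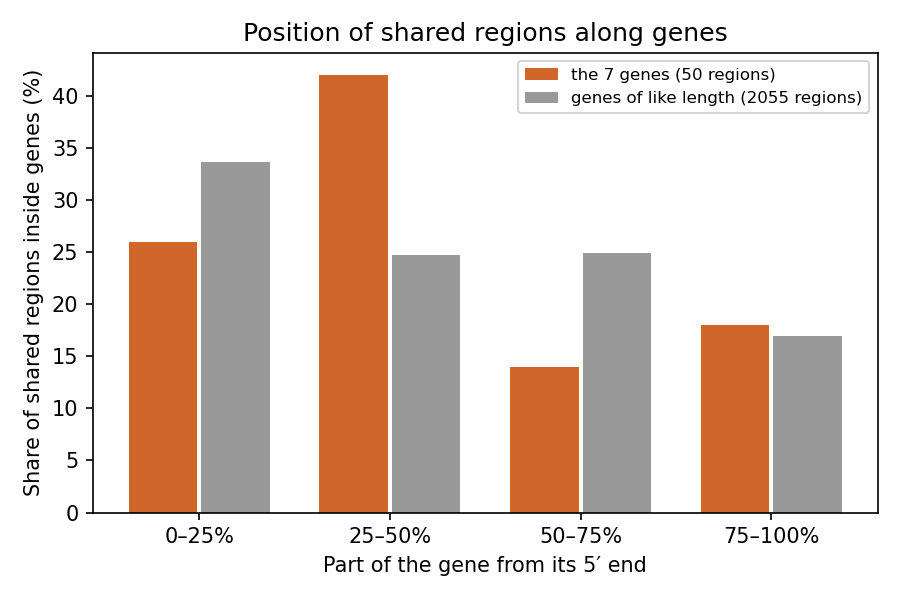
Share of shared regions inside genes, in %, by 25% steps along the gene from its 5′ end, for the 7 genes (orange, 50 regions) and for other genes of like length (grey, 2055 regions, pooled without weighting). The 7 genes have 42.0% between 25% and 50%, where the other genes have 24.7%.

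The summits inside the 7 genes were shared more often than those of comparable genes, as the choice by shared regions would give. In replicate 1, 50 of 63 summits were shared (79.4%, 95% exact binomial interval 67.3 to 88.5), and in replicate 2, 50 of 75 (66.7%, 54.8 to 77.1). In genes of like length the shares were 41.5% and 36.3%. The 13 summits of replicate 1 alone had a median score of 6.4 (3.02 to 17.7) and the 25 of replicate 2 alone a median of 6.76 (2.72 to 22.4). Of these 38 summits, 10 stood within 500 bp of a summit of the other list.

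Scores of the regions were close to those in other genes in replicate 2 and somewhat higher in replicate 1. Their scores inside the genes had a median of 11.7 in replicate 1 (3.0 to 31.8) and 9.75 in replicate 2 (4.24 to 27.0). The middle 50% lay between 7.74 and 18.3 in replicate 1 and between 7.54 and 14.6 in replicate 2. The 4261 shared regions inside other genes had medians of 9.87 and 9.38, with the middle 50% between 6.98 and 14.5 in replicate 1 and between 6.73 and 14.1 in replicate 2. By gene, the medians in replicate 1 ran from 8.13 in Zfp827 to 23.0 in Abhd2, and in replicate 2 from 6.77 in Cab39 to 15.1 in Rasgef1b. The medians of Abhd2 and Rasgef1b were above the middle 50% of other genes in both lists. That of Stard13 was above it in replicate 1 only (17.9, with 9.46 in replicate 2). Those of the remaining genes lay within it in both. Of the 50 regions, 18 scored 10 or more in both lists. Only 2, in Abhd2 at 27.9 kb and in Zfp827 at 32.5 kb, were at or above the 95th percentile of both. The percentile was higher in replicate 1 for 25 regions and in replicate 2 for 25, and for 28 the percentiles were within 20 points of each other. Summits of a pair stood 2 to 92 bp apart, with a median of 34 bp.

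**Figure D5:**
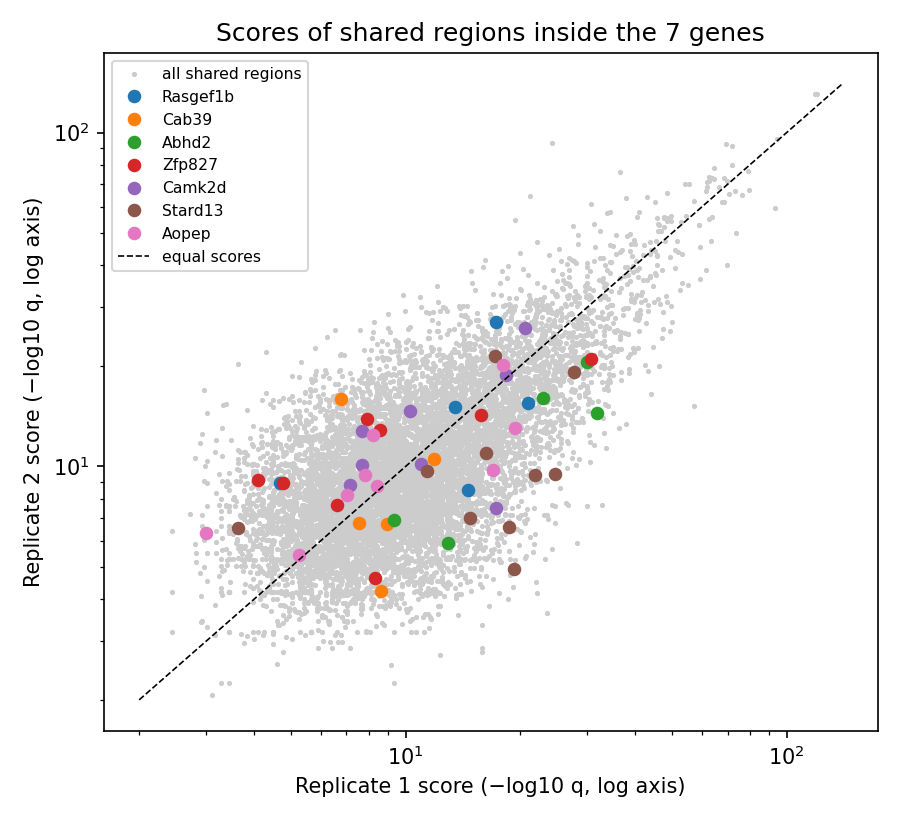
Replicate 2 score against replicate 1 score (−log10 q, both axes logarithmic) for the 50 shared regions inside the 7 genes (coloured by gene) over all shared regions (grey), of which 13 with higher scores are outside the axes. The dashed line marks equal scores, which are not scaled between the lists. Stard13 lies mostly below it, with 8 of 10 scores higher in replicate 1, and Camk2d mostly above it, with 2 of 8.

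Relatives and partners of the 7 genes held shared regions about as often as other genes. Of 34 genes looked at, 6 (17.6%) had a shared region inside the gene, as did 13.8% of all protein-coding genes, and the joint density was 0.562 per 100 kb against the 0.413 given above. Of the 10 regions behind this density, 5 were in Dlc1 alone. Dlc1, the closest relative of Stard13 and of like length (385 kb), had 5 regions, or 1.3 per 100 kb against 2.56 in Stard13, among them one at 230.6 kb (14.8 in replicate 1 and 9.97 in replicate 2). Stard8, the other family member, had none, and the regions of their GTPase partners Rhoa and Cdc42 lay only in the flanks. Among the CaMKII genes, Camk2b had 1 region (12.2 and 13.5), and Camk2a and Camk2g had none inside.

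For the subunits of NuRD, the complex that Zfp827 recruits, 3 of 5 genes had 1 region each, the histone deacetylase gene Hdac1 (10.6 in replicate 1 and 16.0 in replicate 2), Mta1 (21.8 and 21.7) and Rbbp4 (8.61 and 7.31). None was inside the paralogs of Rasgef1b or its Rap2 substrates, none inside Cab39l, Stk11, Strada, Stradb or the AMPK subunit genes, and none inside Abhd3, Abhd6 or Abhd12. Stk11, which encodes LKB1, had 3 within 20 kb. Of the metallopeptidase relatives of Aopep, Lta4h, which makes leukotriene B4, had 1 region 1465 bp from its 5′ end (5.47 and 14.8).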

How the data were processed

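Hnf4a ChIL-seq was deposited for 2 samples of 1 group. MACS2 2.2.9.1, HISAT2 2.0.5, fastp 0.23.4 and build mm10 are named in the submitters' processing notes. Each list deposited by the authors holds 1-bp summits with a −log10 q-value. The summit names give a q limit of 0.01, and scores start at 2.04 (replicate 1) and at 2.01 (replicate 2). Control library, duplicate removal and region filters are not given in the sources used here, and depth is unknown.

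Gene spans came from the RefSeq table of GRCm38.p6, and strand from its promoter table (17274 of 21631 protein-coding genes). A gene's span runs over all its transcripts, predicted ones included. Exons and introns were not analysed here. Regions are chained at 100 bp, placed at their midpoint and counted per 100 kb of gene. A gene of like length lies within 20%.

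The 7 members, the relatives and all settings were chosen with earlier results of these data known. The text names the members, up to 2 relatives per member by number of regions with others for completeness, non-coding neighbours with an end within 1 kb of a region or a region inside, and genes marked as picked after their values were seen. Values of some genes are not reported here. Alternatives covered distance, score, flank, length band and each replicate alone. Counting was tested on simulated data. Python 3.11.15, numpy 2.4.6, pandas 2.3.3, scipy 1.17.1 and matplotlib 3.10.9 were used.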

Additional observations from a re-analysis of the deposited data

How the results depend on the processing

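Read depth is unknown, so how far it sets these counts could not be measured. The 7 genes and 20 kb on either side held 55 shared regions. With summits within 50 bp the count was 36, and with the top 10000 summits of each list 32. With 1 replicate left out, the summits of the other numbered 72 to 90. Within 200 bp it was 62, from a score of 5 it was 46, with no flank 50 and with 10 kb 51. All 7 genes stayed in the top 5% of like length in the other settings, and 6 did among the top 10000 summits, where Cab39 kept 1 region. As the genes were chosen for their density, these ranks follow in part from that choice and are no independent support. Within 50 bp, Aopep had 3 regions and Rasgef1b 3. The share in the first 25% of the gene was 26.0% and moved to 29.0% within 50 bp, 23.6% within 200 bp, 23.8% from a score of 5, 24.5% without gene ends and 22.2% to 24.0% with 1 replicate left out. The share of replicate 1 summits that were shared was 49.2% within 50 bp. The median score in replicate 1 was 13.5 within 50 bp, 14.0 from a score of 5, 16.6 among the top 10000 and 8.94 with replicate 2 left out. In replicate 2 it was 13.5 among the top 10000 and 8.93 with replicate 1 left out. Stricter scores keep fewer and higher summits by construction, and a smaller distance keeps fewer pairs. The cause of the other shifts was not tested. No paired analysis was possible because there is only 1 group.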
